A study of Homo sapiens with 6 samples.

Results

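The 2 arrays of cells transfected with siRNA against LIN28B were compared with the 4 mock-transfected arrays of the same experiment, taken as 1 group. These are all 6 arrays of the series, chosen by their sample titles, and the comparison covers 11584 genes, each read by a probe set that names that gene alone. All groups were HEK293 T-REx Flp-In cells, an established human embryonic kidney line, carrying a FLAG/HA-tagged LIN28B transgene under doxycycline control. The labels give 2 mock-transfected arrays with the transgene not induced, 2 mock-transfected arrays with it induced, and 2 arrays of siRNA-transfected cells with it not induced. The protocol gives 250 ng/ml doxycycline for 15 to 20 h before crosslinking, and no separate time for the RNA samples. Transfection used Lipofectamine RNAiMAX, and cells given a non-targeting siRNA were not analysed here, so siRNA transfection and loss of LIN28B cannot be told apart. Nothing in the labels says whether replicates were separate cultures, and p-values therefore reflect array-to-array spread alone, whose source may be technical. The pooled mock group mixes cells with and without induction.

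LIN28B is an RNA-binding protein of embryonic and tumour cells that holds back let-7 microRNAs at the precursor stage and also contacts many messenger RNAs directly. Mature let-7 lowers transcripts that pair with its seed, the stretch of bases near its 5′ end that picks targets, and LIN28B is itself such a transcript. HEK293 cells make LIN28B from their own genome. Pooling the mock arrays lowers the error of the control mean, at the price of mixing transgene states.

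The let-7 seed is shown first because let-7 is the best described partner of LIN28B. All 9 mature family members in the RefSeq table share a single seed, bases 2 to 8, given in capitals for 3 of them.
hsa-let-7a-5p: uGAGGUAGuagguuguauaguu
hsa-let-7g-5p: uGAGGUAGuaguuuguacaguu
hsa-miR-98-5p: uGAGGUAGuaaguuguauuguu

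Promoter windows of 300 bases, from 250 before to 50 after the RefSeq start on GRCh38.p14, are shown for 1 gene of each of 4 groups in which more members rose than fell, so that the motif classically tied to the group can be seen. Capitals mark the matches, searched on both strands (those of OAS3 are on the reverse strand) among 9476 genes with a window. GGAATTTCC, a kappa-B form read by NF-kB, was in 0.686% of windows, the core of the interferon-stimulated response element, TTTC and TTTC with 2 bases of any kind between them, in 3.63%, ATTTGCAT, the octamer of histone promoters, in 1.68%, and TCACGTGA, the CLEAR form read by TFEB, in 2.34%. A match describes the letters only and does not show a bound site. The OAS3 window also holds the kappa-B letters, which overlap no capitals.
CXCL1 promoter, chr4:73869143-73869442, + strand: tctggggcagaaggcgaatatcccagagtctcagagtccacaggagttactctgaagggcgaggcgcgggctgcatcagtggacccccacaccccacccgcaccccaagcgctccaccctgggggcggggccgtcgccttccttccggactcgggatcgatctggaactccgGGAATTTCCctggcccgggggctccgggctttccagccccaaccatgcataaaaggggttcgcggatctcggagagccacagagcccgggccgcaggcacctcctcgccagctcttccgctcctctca
OAS3 promoter, chr12:112938224-112938523, + strand: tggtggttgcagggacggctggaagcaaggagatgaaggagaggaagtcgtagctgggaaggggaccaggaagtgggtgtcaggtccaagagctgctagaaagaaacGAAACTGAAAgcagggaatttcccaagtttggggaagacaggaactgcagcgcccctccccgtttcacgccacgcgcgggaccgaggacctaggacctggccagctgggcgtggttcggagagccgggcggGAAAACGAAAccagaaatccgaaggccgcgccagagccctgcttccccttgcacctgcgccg
H2BC12 promoter, chr6:27146809-27147108, - strand: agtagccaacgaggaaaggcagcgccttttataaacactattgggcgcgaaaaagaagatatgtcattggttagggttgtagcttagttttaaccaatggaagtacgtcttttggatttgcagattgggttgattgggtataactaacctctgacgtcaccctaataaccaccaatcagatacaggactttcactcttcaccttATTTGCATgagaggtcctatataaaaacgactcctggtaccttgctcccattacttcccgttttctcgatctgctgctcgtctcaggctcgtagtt
LAMP1 promoter, chr13:113296989-113297288, + strand: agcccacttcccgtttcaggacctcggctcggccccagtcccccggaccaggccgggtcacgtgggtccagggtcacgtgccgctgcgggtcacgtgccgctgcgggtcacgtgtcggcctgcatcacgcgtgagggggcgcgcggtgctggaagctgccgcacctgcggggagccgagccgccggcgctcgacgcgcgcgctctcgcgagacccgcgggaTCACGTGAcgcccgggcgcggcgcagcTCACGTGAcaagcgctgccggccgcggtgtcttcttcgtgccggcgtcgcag

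The values are deposited log2 intensities made with affy and GCRMA, per the submitters' processing notes. A fold change is a difference of mean log2 values, and a gene was called at a limma adjusted p under 0.05. The 4 mock arrays correlated with each other at 0.9899 to 0.9937 across probe sets and with the knockdown arrays at 0.97 to 0.9745, and the knockdown arrays with each other at 0.993, where probe sets are not independent replicates. Array medians lay between 7.126 and 7.177. Cell type markers were few in the table: of 5 fibroblast markers 1 fell (VIM, -0.18), of 7 epithelial markers 3 rose and 1 fell, of 3 pluripotency markers 1 fell, and of 2 blood and endothelial markers 0 were called. Without mock not induced replicate 2 a fibroblast marker was called higher, and without knockdown replicate 1 the pluripotency markers had 1 rise and 0 falls. The blood markers CD79A and HBB were read at 4.93 to 5.38 and 4.93 to 5.18.

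LIN28B itself separated the groups. It read 10.02 and 9.85 on the mock arrays not induced, 10.15 and 10.11 on the induced and 7.51 and 7.53 on the knockdown arrays. All 4 mock arrays were high and both knockdown arrays low. Pooled, the knockdown differed from mock by -2.51 on the log2 scale (SE 0.08, adjusted p by limma = 1.62e-08), which is 17.5% of the mock level. It was -2.42 against the arrays not induced and -2.61 against the induced. The induced mock arrays read 0.19 higher than those not induced (p by limma = 0.0349 unadjusted and 0.999 adjusted over all genes), and the labels do not say whether the probe set reads the transgene.

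Against all 4 mock arrays 4290 of 11584 genes (37.0%) met limma's threshold, of which 2110 rose (18.2%) and 2180 fell (18.8%). The median log2 fold change of all genes tested was 0.01. The standard error of a typical gene was 0.103, against 0.123 when only the 2 arrays not induced serve as control. That comparison called 3242 genes (28.0%; 13.5% higher, 14.5% lower), and the comparison with the 2 induced arrays called 3295 (28.4%). Among pooled calls 239 reached at least 2-fold (2.06% of genes tested), 92 of them higher (0.794%) and 147 lower (1.27%), and 980 were under 0.3 on the log2 scale. With knockdown replicate 1 left out 2670 genes were called, and with replicate 2 left out 3012, the lone array being assumed to vary like the rest. Of the 4290 calls, 2111 held when each of the 6 arrays was left out in turn.

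The same knockdown arrays enter the comparisons with either mock group, so these are not independent, and their values are set side by side. Of the 4290 pooled calls, 2712 were also called against each mock group alone, 428 against the arrays not induced only, 500 against the induced only and 650 against neither. All 4290 had the same sign of fold change against either group. The pooled fold change is the mean of those against the mock groups, so the call nearly fixes this outcome. Both knockdown arrays lay outside the range of the 4 mock arrays in 4256 of the calls, where 53.1% of all genes tested did so (27.1% above and 26.0% below). The direct comparison of induced with not induced mock arrays called 0 genes by limma, with 344 at an unadjusted p under 0.05, and 1 gene without mock not induced replicate 2. No gene was therefore shown to have a different fold change against one mock group than against the other. The plot of fold changes against each mock group sets the sets of calls side by side.

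**Figure D1:**
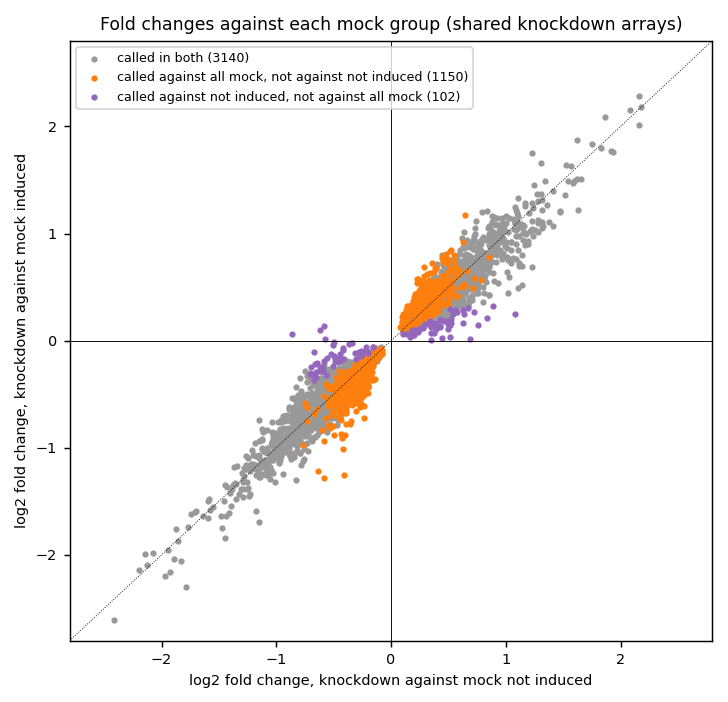
Log2 fold changes of the knockdown against mock not induced (x axis) and against mock induced (y axis), 1 point per called gene; the dotted line marks equal values. The 3140 genes called in both the pooled comparison and the comparison with arrays not induced are grey, the 1150 called against all mock arrays and not against those not induced orange, and the 102 called against those not induced and not against all mock arrays purple. Orange points have the same sign on both axes, and all 102 purple points lie nearer to 0 on the y axis than on the x axis; the choice of the sets fixes part of this pattern.

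The genes of smallest p stood apart from every mock array: histone genes rose, and KCTD12, CANX and MRPL9 fell beside LIN28B. H2BC5, a histone H2B gene, read 7.67, 7.52, 7.60 and 7.58 on the mock arrays and 9.76 and 9.78 on the knockdown arrays (log2 fold change 2.18, SE 0.07, limma adjusted p = 1.62e-08). H2BC12 read 11.52, 11.48, 11.53 and 11.56 on the mock and 12.27 and 12.31 on the knockdown arrays (0.77). In either gene the mock arrays formed a tight group below both knockdown arrays. KCTD12, which binds and modulates GABA-B receptors, read 9.89, 9.90, 9.79 and 9.81 against 7.77 and 7.87 (-2.03).

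PARP1, the poly(ADP-ribose) polymerase that senses DNA breaks, read 10.71, 10.72, 10.83 and 10.78 on the mock arrays and 9.61 and 9.66 on the knockdown arrays, a fall of 1.13 (SE 0.05, adjusted p = 2.05e-07). Several falls were in mitochondrial genes, namely PTPMT1 (-1.97), a phosphatase of cardiolipin synthesis, OMA1 (-1.64), a protease of the inner membrane, the ribosomal subunit gene MRPL9 (-2.11), CMC4 (-1.48) and GCSH (-1.14) of the glycine cleavage system. DTD1 (-1.18), which removes D-amino acids from tRNA, BTBD1 (-1.41), CFAP97 (-0.94) and the ER lectin chaperone CANX (-1.76) were the other falls. The rises held the linker histone H1-2 (1.40), the H2B-like gene H2BC12L (1.11), the stress response gene IER3 (1.34), the metallothionein MT1F (1.31), CADM1, a cell adhesion molecule (0.92), CENPQ of the inner kinetochore (1.31), RRAGD, a GTPase that ties nutrients to mTORC1 (0.81), and the developmental transcription factor TBX18 (1.58). TTC17 (1.27) and GINM1 (0.79) complete the 12. All 24 kept their calls without any single mock array and against each mock group alone, which their choice by smallest p partly fixes. Their limma adjusted p was at most 7.51e-05 against the arrays not induced. Of the 24 genes, H2BC5, H2BC12L, IER3, MT1F, RRAGD, TBX18, MRPL9, CMC4, GCSH, DTD1 and CFAP97 have probe sets whose suffix marks possible cross-reading of related transcripts.

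**Figure D2:**
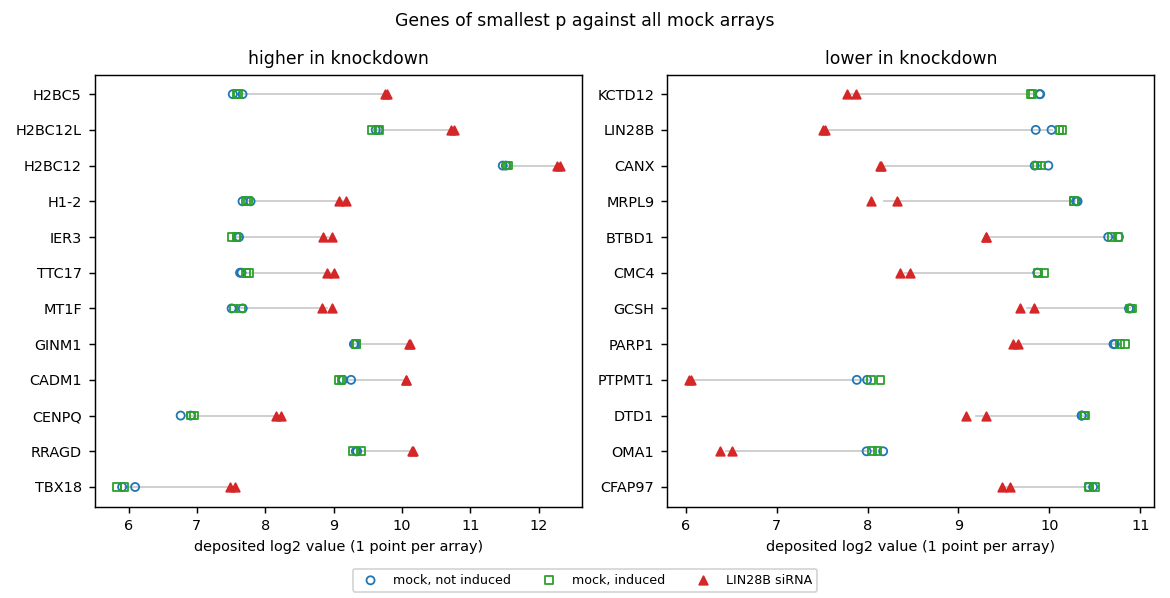
Deposited log2 values (x axis) of the 12 higher (left) and 12 lower (right) genes of smallest p against all mock arrays, 1 point per array; grey lines join the mean of the 4 mock arrays to the mean of the 2 knockdown arrays. The mock arrays with and without induction overlie each other, and both knockdown arrays lie apart from them, as in H2BC5 with mock values of 7.52 to 7.67 and knockdown values of 9.76 and 9.78.

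The largest changes in size were partly in genes near the bottom of the scale. CXCL1, a neutrophil chemokine, read 4.37, 4.21, 4.45 and 3.89 on the mock and 6.56 and 6.34 on the knockdown arrays (2.22, SE 0.19, adjusted p = 9.7e-06). STOX1, a winged-helix gene, read 6.00, 5.34, 5.66 and 6.13 against 3.58 and 3.81 (-2.09). In both genes the mock arrays were spread and still lay apart from the knockdown arrays. The basement membrane collagen COL4A3 differed by -2.04 from all mock arrays, by -1.79 from those not induced and by -2.30 from the induced. GPAT3 (-2.17) of triglyceride synthesis, TNFRSF19 (-2.07) of the TNF receptor family and WIPF1 (-2.04), a partner of WASP, also fell. NLRP11 rose by 2.12, ALDH8A1 by 2.09, GPR19 by 1.98, CXCL6 by 1.85, CXCL10 by 1.85 and DKK3 by 1.81.

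Setting the knockdown against all 4 mock arrays added 1150 genes (9.93% of those tested) that the comparison with the 2 arrays not induced had not called, 598 higher (5.16%) and 552 lower (4.77%). The pooled comparison was fitted with 2 groups and the other with 3, and with 3 groups in both 850 genes were added. Their changes were small, with a median absolute log2 fold change of 0.31 against 0.486 for the 3140 genes called in both. None reached 2-fold, and the largest was in MTCL2 (-0.94), which read 4.24, 5.15, 5.56 and 5.24 on the mock and 3.96 and 4.27 on the knockdown arrays. Knockdown replicate 2 thus overlapped the lowest mock array in this gene. Against the arrays not induced the adjusted p of the 1150 ran from 0.0501 to 0.254, and 894 had an unadjusted p under 0.05. Of them 500 were called against the induced arrays alone.

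The added calls lay nearer the threshold than the others, with a median limma adjusted p of 0.0271 against 0.00153. Their selection for missing the threshold against the arrays not induced partly fixes what follows. None of the 1150 was still called when each of the 6 arrays was left out in turn, while 2111 of the 3140 others were. Leaving out knockdown replicate 1 kept 169 of the 1150 and leaving out replicate 2 kept 268. Leaving out an induced array kept 560 or 570, and an array not induced 947 or 863. In a model that fits the 3 groups separately 833 remained, without the trend of variance with level 703, and after median centring and quantile normalization 956 and 959. Conversely 102 genes were called against the arrays not induced and not against all mock arrays, 51 in each direction, and 0 of these were called against the induced arrays.

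Gains were found at all levels of expression. Among genes with a mean log2 value of 6 to 7, 30.4% were called against all mock arrays and 21.3% against those not induced. At 10 to 12 the shares were 61.3% and 49.8%, and at 5 to 6 they were 19.4% and 14.2%. The median standard error fell from 0.152 at 5 to 6 to 0.0499 at 10 to 12, and the share called was higher where it was smaller, apart from the 223 genes under 5 and the 146 at 12 and above. Long non-coding RNA genes had 109 of 375 called, or 29.1%, with 36 higher and 73 lower, beside 37.0% of all genes tested.

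**Figure D3:**
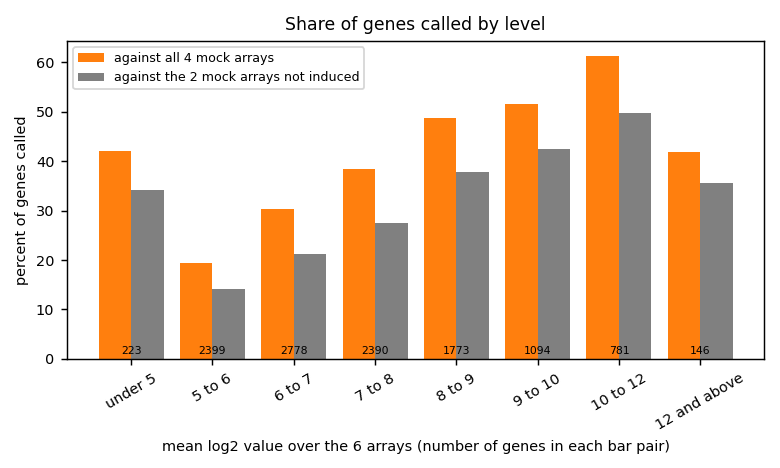
Percent of genes called (y axis) by mean log2 value over the 6 arrays (x axis), against all 4 mock arrays (orange) and against the 2 arrays not induced (grey); the number of genes is written at the foot of each pair of bars. The orange bar is the taller in every class, with 61.3% against 49.8% at 10 to 12.

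Among the 1150, the largest rises with both knockdown arrays above all 4 mock arrays were in the sulfotransferase GAL3ST4, the ribonuclease ANG and FA2H, the fatty acid 2-hydroxylase. GAL3ST4 read 4.84 and 5.45 on the arrays not induced, 4.54 and 4.69 on the induced and 6.10 and 5.48 in the knockdown (0.91, SE 0.25, adjusted p = 0.0158, and 0.0903 against the arrays not induced). ANG read 5.0, 4.01, 4.77 and 4.39 on the mock and 5.33 and 5.39 on the knockdown arrays (0.82, SE 0.25). In GAL3ST4 a knockdown array lay just above a mock array, and in ANG the mock arrays were widely spread below both knockdown arrays. FA2H read 4.63, 5.29, 4.50 and 4.82 against 5.68 and 5.48 (0.77).

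Among the further rises of this set, the inflammatory cytokine IL32 read 5.01, 5.11, 4.78 and 4.69 on the mock and 5.39 and 5.69 on the knockdown arrays (0.64, SE 0.17, adjusted p = 0.0129), with the induced arrays lowest and no overlap. NMNAT2, an NAD-synthesising enzyme of axons, rose by 0.65, ATP1B2, a beta subunit of the sodium pump, by 0.63, and TF, which encodes transferrin, by 0.68. SYTL4, a Rab effector of granule exocytosis, rose by 0.68, the endothelial gene RASIP1 by 0.65, the zinc finger gene ZNF717 by 0.68, SUSD1 by 0.68 and SMIM43 by 0.65. In SYTL4 and RASIP1 the rise rested on a single knockdown array: SYTL4 read 5.06 and 5.97, RASIP1 5.78 and 5.05. Of the 12 rises, 8 lost their call without knockdown replicate 1 (adjusted p of 0.0969 to 0.419) and 8 without replicate 2 (0.0702 to 0.519), and 12 lost it without some array. Their mean mock levels were low on the scale of these arrays, from 4.40 in SMIM43 to 5.87 in ZNF717.

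The falls of this set held a receptor, a calcium channel and a junction protein. EPHX2, a soluble epoxide hydrolase, read 5.35 and 5.37 on the arrays not induced, 6.24 and 6.18 on the induced and 4.90 and 5.01 in the knockdown (-0.83, SE 0.25, adjusted p = 0.0246). LRP5, a Wnt co-receptor, read 4.96, 5.77, 5.22 and 5.54 on the mock and 4.61 and 4.66 on the knockdown arrays (-0.74). In EPHX2 the induced arrays were the highest and in LRP5 the induced arrays lay between the 2 not induced. CLDN6, a tight junction protein of embryonic epithelia, differed by -0.71 (SE 0.20) from all mock arrays, by -0.42 from those not induced and by -1.01 from the induced. ITPR2 (-0.72), an intracellular calcium release channel, PLK2 (-0.68), a polo-like kinase, the exchange factor ARHGEF10 (-0.76) and JAKMIP1 (-0.67) fell too.

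Further falls were in the translation initiation factor subunit EIF3C (-0.87), the metalloprotease TLL2 (-0.68), EML6 (-0.68), and the non-coding transcripts LOC646903 (-0.92) and DLX6-AS1 (-0.69). EIF3C has a near-identical neighbour gene, and its probe set may read both. Of the 12 falls, counted with EPHX2, LRP5, CLDN6, ITPR2, PLK2, ARHGEF10 and JAKMIP1, 10 lost their call without knockdown replicate 1 (adjusted p of 0.0978 to 0.332) and 4 without replicate 2 (0.0755 to 0.201). All 12 lost it without some array. The difference of PLK2 was -0.32 without knockdown replicate 1 and -1.03 without replicate 2, and that of ARHGEF10 was -0.36 and -1.16.

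**Figure D4:**
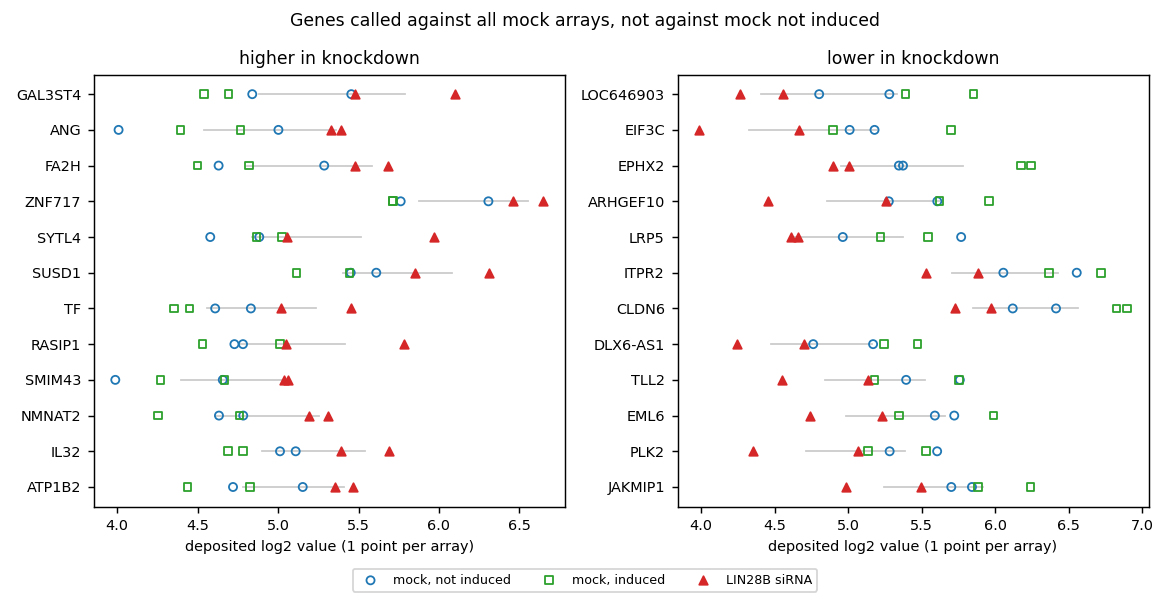
Deposited log2 values (x axis), 1 point per array, of the 12 largest rises (left) and 12 largest falls (right) called against all mock arrays and not against the arrays not induced, among genes with both knockdown arrays outside the mock range; grey lines join group means. The knockdown arrays lie close to the nearest mock array in most genes, as in GAL3ST4 with 5.48 in the knockdown against 5.45 in a mock array.

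Gene groups are described next by the pooled comparison, from lists chosen with earlier results of these data known. For each, the counts of members that rose and fell are to be read against 18.2% and 18.8% of all genes and a median of 0.01. The 1150 genes added by pooling are called newly called, and their counts are to be read against 5.16% higher and 4.77% lower of all genes. Members named outside the rule for named genes were picked after their values were seen. Members named do not show how the newly called genes of a list split. Newly called rises and falls were 5 and 4 in cullins, 3 and 3 in nuclear transport and 4 and 4 in MAPK. They were 6 and 6 in chromatin, 4 and 3 in Wnt, 6 and 4 in TGF-beta and 3 and 3 in TCA cycle. In cell junctions they were 1 and 3, in chaperones 4 and 2, in stress 4 and 5 and in apoptosis 1 and 2. Each newly called gene lost its call without at least 1 array, most often a knockdown array. Brackets also give a count where another setting moved it by over 1.5 times, apart from the 2-fold minimum; the intensity trend is the dependence of the prior variance on the mean level. Whether these group changes are particular to a list was not tested.

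**Figure D5:**
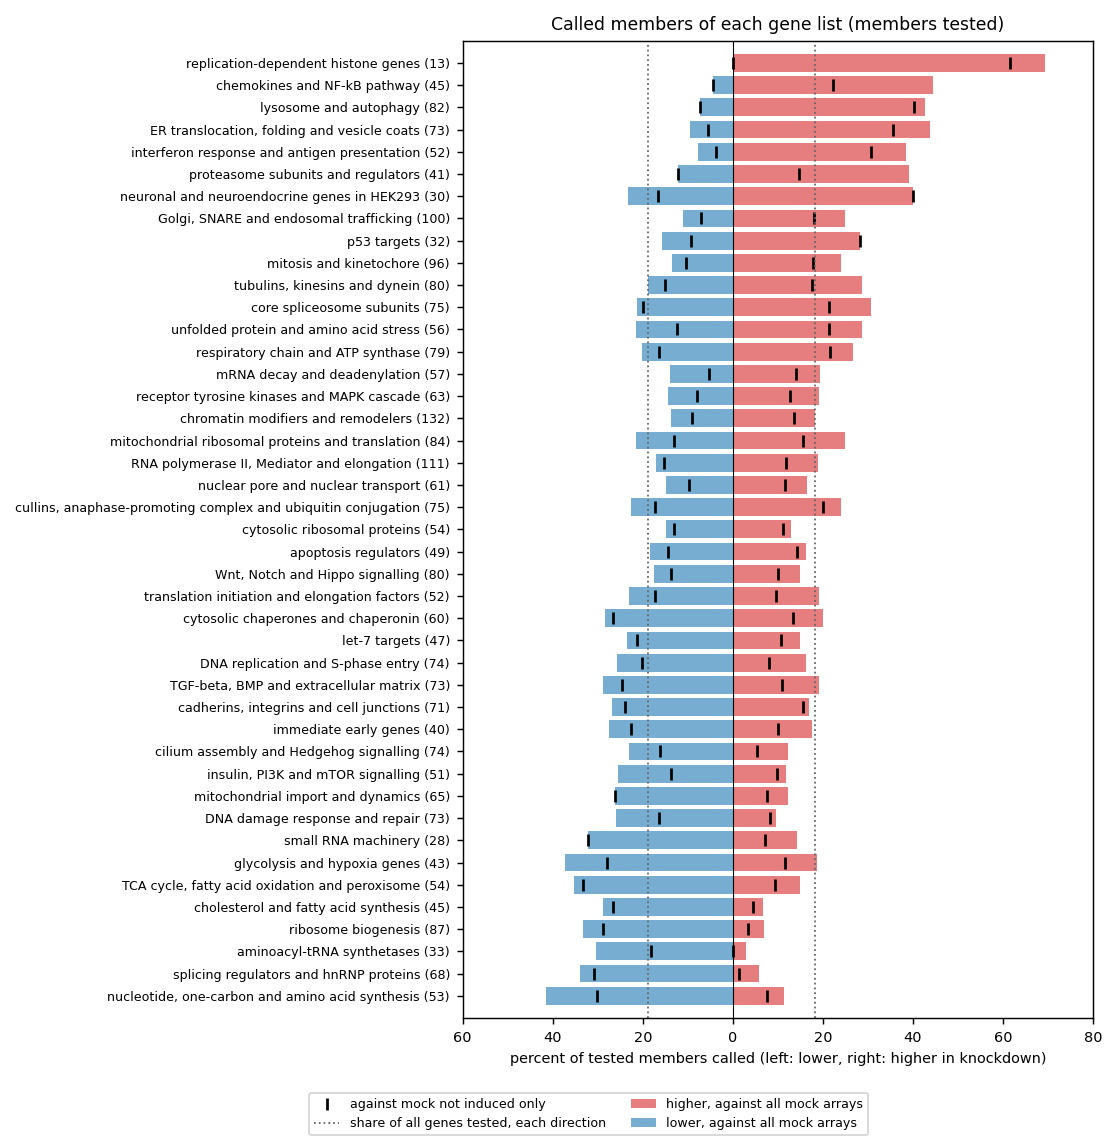
Percent of tested members called (x axis) in each of the 43 lists described here with at least 10 tested members, with the number tested in brackets; red bars to the right are higher and blue bars to the left lower in the knockdown against all mock arrays, black ticks mark the same share against mock not induced, and dotted lines the 18.2% and 18.8% of all genes tested. The red bars of the histone, chemokine and NF-kB, and ER lists reach farthest, and the tick of the chemokine and NF-kB list stands at 10 of its 20 rises.

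Pooling added signalling components and further targets to the chemokine and interferon lists. Of the 10 newly called members of the chemokine list 4 were called against the induced arrays alone. Of the 5 rises and 2 falls newly called in the interferon list 0 were. In the chemokines and NF-kB pathway list, 20 of 45 members rose and 2 fell (11 and 2 without knockdown replicate 1, 10 and 2 without replicate 2, 7 rose with means under 6 left out; median 0.19). The 10 newly called rises included the kinase subunit CHUK (0.24), the adaptors TRAF6 (0.29) and TAB2 (0.28), the transcription factor REL (0.42), the deubiquitinase CYLD (0.36), the A20 partner TNIP2 (0.26), and the targets ICAM1 (0.51), CXCL16 (0.45), PTX3 (0.35) and IL32 (0.64). REL read 5.47 and 5.30 on the arrays not induced, 5.18 and 5.38 on the induced and 5.69 and 5.83 on the knockdown arrays, with a pooled log2 fold change of 0.42 (SE 0.14, adjusted p = 0.0321). Both knockdown arrays lay above all 4 mock arrays. The falls were MAP3K7 (-0.50), the TAK1 kinase, and IRAK1 (-0.43). Of the 13 members whose promoter window holds the kappa-B match, 9 rose, 0 fell and 4 were not called, namely NFKB1 (0.04), NFKBIB (0.02), MAP3K8 (-0.16) and NFKBIZ (0.24). Of all 65 genes with that match 20 rose and 12 fell, and these 20 include the 9 rises of the list. Of all 9476 genes with a window 1779 rose and 1801 fell.

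In the interferon response and antigen presentation list, 20 of 52 members rose and 4 fell (14 and 3 without knockdown replicate 1, 14 and 2 without replicate 2, 2 fell without mock not induced replicate 2, 2 fell without mock induced replicate 1, 2 fell after median centring, 13 rose with means under 6 left out, 2 fell in the model of 3 groups; median 0.23). Newly called rises were the RNA sensor RIGI (0.50), the 2-5A synthetase OAS3 (0.49), PARP9 (0.36), TRIM38 (0.33) and HLA-E (0.22), and newly called falls the ubiquitin-like ISG15 (-0.32) and LGALS3BP (-0.17). OAS3 read 5.17 and 5.27 on the arrays not induced, 5.32 and 4.96 on the induced and 5.51 and 5.83 on the knockdown arrays (0.49, SE 0.16, adjusted p = 0.0325). ISG15 read 6.69 and 6.78 on the arrays not induced, 6.72 and 6.80 on the induced and 6.56 and 6.28 on the knockdown arrays, with the knockdown arrays lowest and no overlap. Of the 45 members with a window 19 rose, and 10 of these were among the 28 that hold the interferon element. Of those 28, 4 fell and 14 were not called, and these 4 were all the falls of the list. Of all 344 genes with the element 77 rose and 51 fell, which include the 10 rises and 4 falls of the list. IFI27 (1.26), SAMD9 (0.88) and the immunoproteasome subunit PSMB9 (0.83) rose most.

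All called members of the replication-dependent histone genes list rose: 9 of 13 members rose and 0 fell (8 and 0 without knockdown replicate 1, 8 and 0 without replicate 2; median 0.77). The newly called member was H2BC21 (0.45), which read 5.90 and 5.83 on the arrays not induced, 5.89 and 5.68 on the induced and 6.23 and 6.33 on the knockdown arrays. Its knockdown arrays lay above the mock arrays without overlap. Each of the 6 members with an octamer match in the window rose, of 9 that rose in all. Of all 159 genes with the octamer 38 rose and 29 fell, and these 38 include the 6 of the list. Histone probe sets can read related copies, so members cannot be counted as separate genes with certainty. The 13 tested are a part of the 61 genes listed, and the others were not read. Whether these readings follow the total amount of histone transcript was not tested.

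The proteasome gained 10 rises and 1 fall from pooling. Of these, 8 rises and the fall were called against the induced arrays alone. In the proteasome subunits and regulators list, 16 of 41 members rose and 5 fell (9 and 2 without knockdown replicate 1, 5 and 4 without replicate 2, 9 rose and 9 fell after quantile normalization, 4 rose without the intensity trend; median 0.06), where 6 rose and 5 fell against the arrays not induced alone. Newly called rises were the core subunits PSMA4 (0.16), PSMB3 (0.11) and PSMB5 (0.14), the ATPase PSMC3 (0.16), the lid and base subunits PSMD2 (0.17), PSMD6 (0.13), PSMD8 (0.15) and PSMD14 (0.10), the activator PSME1 (0.19) and the assembly chaperone PSMG2 (0.27). PSMD14, the lid deubiquitinase, read 11.67 and 11.65 on the arrays not induced, 11.62 and 11.61 on the induced and 11.72 and 11.76 on the knockdown arrays (0.10, SE 0.04, adjusted p = 0.0393). The groups did not overlap, yet the difference was small. The inhibitor PSMF1 (-0.29) fell, as did UCHL5 (-0.99), PSMG4 (-0.39), PSMG3 (-0.25) and PSMC2 (-0.28). Rises thus outnumbered falls with the deposited scaling and the intensity trend, were as many as falls after quantile normalization, and without the trend were 4 against 5 falls.

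More members rose than fell in the ER and lysosome lists. In the ER translocation, folding and vesicle coats list, 32 of 73 members rose and 7 fell (23 and 4 without knockdown replicate 1, 23 and 3 without replicate 2; median 0.16). Newly called rises were the translocon-associated SSR3 (0.35), the signal peptidase subunit SPCS3 (0.35), the lectin chaperone CALR (0.23), the coat proteins SEC24C (0.31) and SEC31A (0.17) and the cargo receptor TMED5 (0.30). Newly called falls were SEC61A2 (-0.30), ERP44 (-0.44) and SEC23A (-0.26). CALR read 8.74 and 8.93 on the arrays not induced, 8.86 and 8.82 on the induced and 9.08 and 9.07 on the knockdown arrays, opposite in direction to its fellow lectin chaperone CANX (-1.76). In the lysosome and autophagy list, 35 of 82 members rose and 6 fell (29 and 3 without knockdown replicate 1, 33 and 4 without replicate 2; median 0.19), with only the proton pump subunit ATP6V1D (0.17) and the scramblase ATG9A (0.28) newly called. Of 8 members with the CLEAR match 6 rose, LAMP1 by 0.45 and the calcium channel MCOLN1 by 0.75. Of all 222 genes with that match 45 rose and 30 fell, and these 45 include the 6 of the list. BNIP3L (0.88), ATG14 (0.83) and ATG2A (0.82) rose most. In the Golgi, SNARE and endosomal trafficking list, 25 of 100 members rose and 11 fell (13 and 7 without knockdown replicate 1, 17 and 7 without replicate 2; median 0.05), with VPS50 (0.45) and GOLGA1 (0.33) newly higher, GORASP1 (-0.34) newly lower and VPS33A (-0.98), VPS37A (-0.72) and AP3M1 (-0.66) the largest falls. In the cullins, anaphase-promoting complex and ubiquitin conjugation list, 18 of 75 members rose and 17 fell (13 and 12 without knockdown replicate 1, 15 and 9 without replicate 2; median 0.02, -0.01 after quantile normalization), with SKP2 (-1.07) and UBE2Z (-0.98) lower, COPS7B (0.95) higher and CUL7 (-0.30), GPS1 (-0.20) and UBE2G2 (-0.30) newly lower. In the cytosolic chaperones and chaperonin list, 12 of 60 members rose and 17 fell (7 and 15 without knockdown replicate 1, 9 and 13 without replicate 2; median -0.03), from HSPA2 (1.17), DNAJC3 (0.43) and HSPA13 (0.34) higher to DNAJC2 (-0.93) and BAG1 (-0.93) lower.

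Among splicing regulators more members fell than rose, and core spliceosome subunits went both ways. In the splicing regulators and hnRNP proteins list, 4 of 68 members rose and 23 fell (1 and 19 without knockdown replicate 1, 2 and 19 without replicate 2, 2 rose without mock not induced replicate 1, 2 rose without mock induced replicate 2, 1 rose after quantile normalization, 1 rose without the intensity trend, 2 rose in the model of 3 groups; median -0.17), with NONO (0.20) and RBM10 (0.23) newly higher, RBM5 (-0.19) newly lower, and HNRNPA3 (-0.96) and RBM3 (-0.78) the largest falls. The core spliceosome subunits moved in both directions: 23 of 75 members rose and 16 fell (10 and 10 without knockdown replicate 1, 15 and 12 without replicate 2; median 0.00, 0.03 after median centring). Its newly called members were mostly rises, among them PRPF31 (0.20) and BCAS2 (0.22), while the 3′ splice site factor U2AF1 (-0.37) fell. In the mRNA decay and deadenylation list, 11 of 57 members rose and 8 fell (10 and 4 without knockdown replicate 1, 6 and 4 without replicate 2, 5 fell without mock induced replicate 1, 3 fell without mock induced replicate 2, 5 fell without the intensity trend; median 0.04), with the exonuclease XRN1 (0.27) newly higher and the decay factor ZFP36L2 (-0.46) newly lower beside its paralog ZFP36L1 (0.94) higher. In the small RNA machinery list, 4 of 28 members rose and 9 fell (3 and 8 without knockdown replicate 1, 2 and 8 without replicate 2, 2 rose without mock induced replicate 2, 2 rose without the intensity trend; median -0.05); LIN28B, the target of the siRNA, is 1 of those that fell. DROSHA, which makes the first cut on microRNA precursors, read 9.82 and 9.93 on the arrays not induced, 9.90 and 9.91 on the induced and 9.71 and 9.77 on the knockdown arrays (-0.15, adjusted p = 0.0442), and the Dicer partners TARBP2 (0.29) and PRKRA (0.16) were newly higher. In the let-7 targets list, 7 of 47 members rose and 11 fell (4 and 8 without knockdown replicate 1, 4 and 9 without replicate 2; median -0.02, 0.01 after median centring), LIN28B itself again among the falls, with INSR (-0.35) newly lower and CCND2 (0.19), NR6A1 (0.31) and ZNF322 (0.27) newly higher. In the nuclear pore and nuclear transport list, 10 of 61 members rose and 9 fell (6 and 5 without knockdown replicate 1, 7 and 6 without replicate 2, 6 rose without the intensity trend; median -0.02, 0.01 after median centring), from TNPO3 (-0.98) to NUP160 (1.06), with XPOT (-0.33) and NUP43 (-0.27) newly lower.

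Falls outnumbered rises among genes that build ribosomes and charge tRNA. In the ribosome biogenesis list, 6 of 87 members rose and 29 fell (3 and 20 without knockdown replicate 1, 2 and 21 without replicate 2, 3 rose without mock induced replicate 1, 3 rose without the intensity trend; median -0.10). The newly called falls held the RNA polymerase I factor UBTF (-0.44), TCOF1 (-0.40), GNL2 (-0.44) and NOL11 (-0.26), and the largest fall was RRP1B (-1.22). UBTF read 5.93 and 6.46 on the arrays not induced, 6.43 and 6.32 on the induced and 5.90 and 5.80 on the knockdown arrays; the replicates not induced were far apart and the knockdown arrays lay just below the lower one. In the aminoacyl-tRNA synthetases list, 1 of 33 members rose and 10 fell (0 and 6 without knockdown replicate 1, 0 and 6 without replicate 2; median -0.11), with AARS1 (-0.20), LARS1 (-0.32), KARS1 (-0.12) and MARS2 (-0.28) newly lower. AARS1, the alanine enzyme, read 9.34 and 9.49 on the arrays not induced, 9.45 and 9.49 on the induced and 9.24 and 9.24 on the knockdown arrays, with both knockdown arrays below every mock array. The only rise, HARS1 (0.15), was lost without any 1 array other than mock not induced replicate 1. In the translation initiation and elongation factors list, 10 of 52 members rose and 12 fell (6 and 10 without knockdown replicate 1, 5 and 11 without replicate 2, 6 rose without mock induced replicate 1, 6 rose without mock induced replicate 2, 6 rose without the intensity trend; median 0.00, 0.03 after median centring), with EIF4E2 (0.31) and HBS1L (0.35) newly higher and EIF5A2 (1.14) and EIF3J (-0.91) at the ends. In the cytosolic ribosomal proteins list, 7 of 54 members rose and 8 fell (8 and 5 without knockdown replicate 1, 4 and 7 without replicate 2, 2 rose without the intensity trend; median -0.01, 0.02 after median centring), with RPL11 (0.09) and RPL36A (0.35) newly higher and RPL8 (-0.08) newly lower.

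Of the 7 newly called members of the insulin and mTOR list, 6 fell. Of these falls 3 were called against the induced arrays alone, and so was the rise. In the insulin, PI3K and mTOR signalling list, 6 of 51 members rose and 13 fell (3 and 9 without knockdown replicate 1, 4 and 4 without replicate 2; median -0.13). The kinase MTOR (-0.44), the insulin receptor INSR (-0.35), the mTORC1 substrates AKT1S1 (-0.39) and EIF4EBP1 (-0.27), the AMPK subunit PRKAB2 (-0.44) and the adaptor GRB10 (-0.36) fell, and RICTOR (0.44) of mTORC2 rose. MTOR read 6.59 and 6.61 on the arrays not induced, 6.82 and 6.31 on the induced and 6.14 and 6.16 on the knockdown arrays (-0.44, SE 0.13, adjusted p = 0.0253), with 1 induced array nearest to the knockdown. RICTOR read 6.64 and 6.20 on the arrays not induced, 6.35 and 6.27 on the induced and 6.85 and 6.76 on the knockdown arrays (0.44), with the groups apart. In the receptor tyrosine kinases and MAPK cascade list, 12 of 63 members rose and 9 fell (6 and 4 without knockdown replicate 1, 6 and 6 without replicate 2; median 0.03), with RASSF8 (-1.38), EGFR (-1.11) and FGFR3 (-1.03) lowest and EPHA3 (-0.45) and MAP2K2 (-0.34) newly lower. In the Wnt, Notch and Hippo signalling list, 12 of 80 members rose and 14 fell (5 and 10 without knockdown replicate 1, 8 and 11 without replicate 2; median 0.00, 0.03 after median centring), with the Wnt antagonist DKK3 (1.81) highest, HES4 (-1.21) and WNT11 (-1.07) lowest and WNT5B (0.40) and FZD2 (0.37) newly higher. In the TGF-beta, BMP and extracellular matrix list, 14 of 73 members rose and 21 fell (8 and 14 without knockdown replicate 1, 7 and 17 without replicate 2; median -0.10), with COL4A5 (-1.29) and NID2 (-1.13) of the basement membrane lowest and FBN1 (0.52) and COL9A3 (0.49) newly higher. In the immediate early genes list, 7 of 40 members rose and 11 fell (4 and 4 without knockdown replicate 1, 7 and 8 without replicate 2; median 0.02), with IER3 (1.34) highest, MYC (-1.07) and ID1 (-1.01) lowest, DUSP4 (-0.48) newly lower and DUSP5 (0.36) newly higher. In the unfolded protein and amino acid stress list, 16 of 56 members rose and 12 fell (10 and 5 without knockdown replicate 1, 12 and 9 without replicate 2; median 0.07), with DNAJB9 (1.11) and CREBRF (1.00) highest, SLC7A11 (-0.92) lowest and SLC7A5 (-0.46) newly lower.

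More members of the DNA damage list fell than rose. In the p53 targets list, given below, pooling added 2 rises and 2 falls, the larger fall being PLK2 (-0.68). In the DNA damage response and repair list, 7 of 73 members rose and 19 fell (5 and 7 without knockdown replicate 1, 5 and 13 without replicate 2; median -0.05). Among the newly called falls were the recombination gene XRCC3 (-0.48), the helicase RECQL4 (-0.30), FANCI (-0.29) of the Fanconi pathway, the nuclease ERCC4 (-0.58), the glycosylase NTHL1 (-0.24) and the polymerase POLK (-0.32). FANCI read 9.61 and 9.38 on the arrays not induced, 9.63 and 9.49 on the induced and 9.28 and 9.20 on the knockdown arrays (-0.29, SE 0.07, adjusted p = 0.0102). The knockdown arrays were lowest, and the lowest mock array was 1 of those not induced. PARP1 (-1.13), RNF168 (-1.03) and ATR (-1.01) fell most. In the DNA replication and S-phase entry list, 12 of 74 members rose and 19 fell (6 and 15 without knockdown replicate 1, 5 and 16 without replicate 2, 7 rose without the intensity trend; median -0.04), with the sliding clamp PCNA (0.13), CCND2 (0.19) and CCND3 (0.24) newly higher, CDC6 (-0.26) and POLD3 (-0.30) newly lower and DBF4 (-1.40) and CDC7 (-0.83) lowest. In the mitosis and kinetochore list, 23 of 96 members rose and 13 fell (15 and 10 without knockdown replicate 1, 15 and 10 without replicate 2, 8 fell without the intensity trend; median 0.02), with ECT2 (0.33) and CENPA (0.27) newly higher, CENPH (-0.32) newly lower and CENPQ (1.31) and MKI67 (-0.98) at the ends. In the p53 targets list, 9 of 32 members rose and 5 fell (6 and 1 without knockdown replicate 1, 6 and 4 without replicate 2, 3 fell without mock not induced replicate 1, 3 fell without mock induced replicate 2; median 0.00), with TP53INP1 (1.03) highest and GADD45B (0.35) and CCNG2 (0.44) newly higher. In the apoptosis regulators list, 8 of 49 members rose and 9 fell (7 and 5 without knockdown replicate 1, 6 and 8 without replicate 2; median 0.04), with HRK (-0.95) lowest, BIK (0.76) highest and BID (-0.25) newly lower.

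Pooling added 9 rises to the microtubule list, of which 1 was called against the induced arrays alone. All 9 lost their call without mock induced replicate 2. In the tubulins, kinesins and dynein list, 23 of 80 members rose and 15 fell (11 and 9 without knockdown replicate 1, 9 and 14 without replicate 2, 14 rose without mock induced replicate 2; median 0.04). Newly called rises were the dynactin subunits DCTN4 (0.22), DCTN5 (0.26) and DCTN6 (0.16), the kinesins KIF2A (0.23), KIF3B (0.22), KIF3C (0.37) and KIF13A (0.21) and the dynein adaptors HOOK1 (0.23) and HOOK2 (0.42). KIF2A read 7.59 and 7.52 on the arrays not induced, 7.54 and 7.53 on the induced and 7.74 and 7.81 on the knockdown arrays, with tight mock arrays below both knockdown arrays. The neuronal tubulin TUBB3 (-0.22) and TUBB2A (-0.24) were newly lower. To the cilium list, given next, pooling added 5 rises (0.20 to 0.44) and 5 falls (-0.64 to -0.20). In the cilium assembly and Hedgehog signalling list, 9 of 74 members rose and 17 fell (6 and 11 without knockdown replicate 1, 4 and 16 without replicate 2; median -0.09), with the transport subunit IFT80 (-0.38), BBS7 (-0.64) and DYNC2H1 (-0.41) newly lower and the ciliary transcription factor RFX3 (-1.87) lowest. In the cadherins, integrins and cell junctions list, 12 of 71 members rose and 19 fell (9 and 13 without knockdown replicate 1, 9 and 15 without replicate 2; median -0.08), with ADGRG2 (-1.94) and NCAM1 (-1.13) lowest and FERMT2 (0.31) newly higher. In the neuronal and neuroendocrine genes in HEK293 list, 12 of 30 members rose and 7 fell (11 and 3 without knockdown replicate 1, 11 and 5 without replicate 2, 7 rose with means under 6 left out; median 0.18), with BEX5 (1.42) and ELAVL2 (1.29) highest and NRXN3 (-0.29) newly lower.

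Falls outnumbered rises in the 4 metabolic lists, and the mitochondrial lists were mixed. In the nucleotide, one-carbon and amino acid synthesis list, 6 of 53 members rose and 22 fell (4 and 14 without knockdown replicate 1, 3 and 15 without replicate 2, 12 fell without the intensity trend; median -0.12). The serine synthesis enzymes PHGDH (-0.27) and PSAT1 (-0.32), PRPS2 (-0.32), ASNS (-0.25), ODC1 (-0.15) and MAT2A (-0.20) were newly lower, and SHMT2 (0.26) and GART (0.47) newly higher. PHGDH read 10.11 and 10.14 on the arrays not induced, 10.27 and 10.36 on the induced and 9.91 and 9.99 on the knockdown arrays, with the induced arrays highest and the knockdown arrays lowest. PSAT1 read 10.05 and 9.89 on the arrays not induced, 10.22 and 10.18 on the induced and 9.95 and 9.60 on the knockdown arrays, where a knockdown array lay above the lowest mock array. In the TCA cycle, fatty acid oxidation and peroxisome list, 8 of 54 members rose and 19 fell (4 and 16 without knockdown replicate 1, 6 and 18 without replicate 2; median -0.15), with IDH3A (-1.36), ACADM (-1.19) and ABCD3 (-1.13) lowest and PC (-0.52) and DLST (-0.30) newly lower. In the cholesterol and fatty acid synthesis list, 3 of 45 members rose and 13 fell (1 and 10 without knockdown replicate 1, 2 and 12 without replicate 2, 5 rose after median centring; median -0.14), with ELOVL4 (-1.27) and ACSL4 (-1.12) among the falls and HMGCS1 (0.31) newly higher. In the glycolysis and hypoxia genes list, 8 of 43 members rose and 16 fell (7 and 10 without knockdown replicate 1, 6 and 14 without replicate 2, 8 fell without the intensity trend; median -0.09), with VEGFA (-0.33) and PFKFB3 (-0.36) newly lower, ANKRD37 (0.61) newly higher, HK2 (-0.99) lowest and SLC2A3 (1.22) highest. In the mitochondrial ribosomal proteins and translation list, 21 of 84 members rose and 18 fell (16 and 14 without knockdown replicate 1, 11 and 12 without replicate 2, 13 rose without the intensity trend; median 0.04), with MRPL50 (0.38) newly higher and MRPL19 (-0.36) and MRPL44 (-0.30) newly lower. In the respiratory chain and ATP synthase list, 21 of 79 members rose and 16 fell (16 and 10 without knockdown replicate 1, 12 and 13 without replicate 2, 10 rose without the intensity trend; median 0.05), with CYCS (-0.67) lowest, NDUFC1 (0.25) and NDUFB7 (0.16) newly higher and ATP5F1E (-0.24) newly lower. In the mitochondrial import and dynamics list, 8 of 65 members rose and 17 fell (6 and 12 without knockdown replicate 1, 5 and 14 without replicate 2, 5 rose without the intensity trend; median -0.06), with VDAC1 (0.17), VDAC3 (0.19) and MFN1 (0.32) newly higher.

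In the chromatin modifiers and remodelers list, 24 of 132 members rose and 18 fell (15 and 10 without knockdown replicate 1, 15 and 13 without replicate 2; median 0.03), with KDM5A (1.05) and KAT2B (0.75) highest, KDM1B (-0.79) lowest and HDAC4 (-0.58) and SETDB2 (-0.48) newly lower. In the RNA polymerase II, Mediator and elongation list, 21 of 111 members rose and 19 fell (13 and 10 without knockdown replicate 1, 13 and 16 without replicate 2; median 0.06), with POLR2C (-1.08) and TCEA1 (-0.73) lowest, TAF8 (0.40) and SUPT5H (0.32) newly higher and CDK9 (-0.38) newly lower.

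Some genes met the threshold against the arrays not induced and not against all mock arrays. SLPI, a secreted protease inhibitor, read 4.01 and 4.11 on the arrays not induced, 5.0 and 4.79 on the induced and 5.15 and 5.13 on the knockdown arrays, and its log2 difference was 1.08 against the arrays not induced, 0.25 against the induced and 0.66 against all (adjusted p = 0.0774). The induced arrays lay close to the knockdown arrays and the arrays not induced far below. GRIN2C, an NMDA receptor subunit, read 5.89 and 6.25 on the arrays not induced, 5.31 and 4.98 on the induced and 4.90 and 5.52 on the knockdown arrays, with differences of -0.86 and 0.06. SEMA4B (0.83 and 0.21), GPT (0.76 and 0.15), AP3B2 (0.73 and 0.27) and SEC14L1P1 (0.89 and 0.32) had the other large positive differences. MAOA (-0.71 and -0.31), CDHR3 (-0.70 and -0.31), COL21A1 (-0.69 and -0.24) and KICS2 (-0.68 and -0.31) had the other large negative ones. Of the 102 genes 47 had an unadjusted p under 0.05 between induced and not induced mock arrays, and 0 passed adjustment.

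Among pooled calls the mock groups stood farthest apart in EPHX2, by 0.85 (induced minus not induced, limma adjusted p = 0.83). CROT, a peroxisomal acyltransferase, read 7.02 and 7.07 on the arrays not induced, 6.58 and 6.44 on the induced and 8.13 and 8.40 on the knockdown arrays (1.49, SE 0.17, adjusted p = 7.2e-05), and the knockdown arrays were highest against either mock group. PSMB9 read 4.71 and 4.75 on the arrays not induced, 5.41 and 5.30 on the induced and 5.73 and 6.01 on the knockdown arrays, with the induced arrays between the others. The difference between mock groups was 0.61 in RHD, 0.70 in MTCL2, -0.47 in TMTC2 and -0.45 in RASSF3, and their pooled fold changes were 0.80, -0.94, -0.52 and -0.57. None of these differences between mock groups passed adjustment.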

How the data were processed

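RNA was measured on 6 U133 Plus 2.0 arrays (2 per group) after One-Cycle labelling of 2 µg total RNA, per the labels' protocols. The authors deposited log2 values of 13008 probe sets, made with affy and GCRMA per the submitters' processing notes; versions and the rule that chose the probe sets are not given in the sources used here, and base 2 was taken from the range of values (2.59 to 14.27), since no source states it. Of these, 11719 probe sets name 1 gene symbol, 609 several and 680 none. The 11584 genes were tested, each on its probe set of highest mean over the 6 arrays, with no further normalization.

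Linear models were fitted per gene with limma 3.58.1 (R 4.3.3), and the moderated test let the prior variance follow the mean level, with Benjamini-Hochberg adjustment over all 11584 genes. The pooled comparison was fitted with 2 groups (mock, knockdown), and the comparisons with each mock group with 3. Figures and counts used Python 3.11.15, pandas 2.3.3, numpy 2.4.6 and matplotlib 3.10.9. The procedure was tested on simulated data. The number of arrays limits the precision.

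The members and gene lists were chosen with earlier results of these data known. Genes named are LIN28B, the 12 rises and 12 falls of smallest p, the 12 largest newly called in each direction with groups apart, the 5 largest in each direction called against mock not induced alone, the 4 largest differences between mock groups in each direction, up to 6 called members per list and the 8 largest changes in each direction. Others were picked after their values were seen. Of 48 lists, 44 have at least 10 tested members, and 4 are marker lists. 1 list of the 44 and 1 repair gene are not reported here. Alternatives were median centring, quantile normalization, a filter on mean values under 6, the mean of probe sets, each probe set, no intensity trend, robust eBayes, a 2-fold minimum, the replicate block, a model of 3 groups, only the 4 arrays compared, and each array left out.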

Additional observations from a re-analysis of the deposited data

Results flagged for a closer look

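Among the 4 mock arrays, a value far from the other 3 was found for some of the 306 genes named and examined. Chance gives such a value in about 1 in 20 groups, and the number found was not above that rate. Mock not induced replicate 1 was highest for ATP6V1D (9.65), CCND2 (8.65) and PSMA4 (11.95) and lowest for NFKBIZ (5.42) and ZFP36L1 (5.75). Mock not induced replicate 2 was highest for LGALS3BP (9.98), NONO (10.57) and ZNF717 (6.31) and lowest for POLK (6.31). Mock induced replicate 1 was highest for CMC4 (9.95) and WIPF1 (5.86) and lowest for NLRP11 (3.17), and mock induced replicate 2 was lowest for DUSP5 (6.46).

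Probe sets that name several genes or none stood outside the comparison. Of 1289 such probe sets 431 (33.4%) were called against all mock arrays by limma, 198 higher and 233 lower, against 36.8% of probe sets that name 1 gene.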

How the results depend on the processing

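Leaving out 1 array gave 2670 to 4329 pooled calls, 1343 to 2148 higher and 1325 to 2181 lower, 1664 to 3143 calls against mock not induced, 1702 to 3951 against mock induced, 1015 to 1484 newly called and 0 to 1 between mock groups. Requiring 2-fold left 239 pooled calls (92 higher, 147 lower), 255 against mock not induced and 265 against mock induced, since few changes are that large. By that rule 23 genes were called against all mock arrays and not against those not induced, and 0 of these were among the 1150. Other settings gave 3846 to 4458 pooled calls, and median centring moved the split from 2110 higher and 2180 lower to 2441 and 1955, with the median of all genes at 0.04 in place of 0.01. With only the 4 arrays compared in the fit, 1558 genes were newly called. Genes named in the text kept their direction and side of the threshold in 3876 of 4816 recomputed values, lost the call in 917 and gained it in 20. The sign turned in 3, for genes that were not called: with 1 array left out in turn, NFKB1 ranged from -0.020 to 0.103 and NFKBIB from -0.0744 to 0.0748. Replicate numbers pair no samples by the labels, and deviations of same-numbered arrays correlated at 0.18, 0.02 and -0.06 across genes; with the replicate block 4458 genes were called. The number of arrays and, for genes near the bottom of the scale, low signal limit what can be called.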
